A study of Oryza sativa with 45 samples.

Results

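The transgenic rice line Ta was compared with the negative segregant line NSb in generation F6, in seedlings grown without salt. The arrays were taken from the sample labels: 3 pools of transgenic and 3 pools of negative segregant F6 seedlings without salinity stress, 6 of the 45 arrays of the study, and all 54922 probe sets of the array were compared. All lines are Oryza sativa ssp. japonica cv. Nipponbare. Ta was obtained by Agrobacterium and carries 1 copy of OsICE1 fused with a TAP tag (a peptide tag for protein purification) under the maize ubiquitin promoter, together with a hygromycin resistance gene. NSb descends from another transformation event, Tb, which held OsICE1 under the same promoter without the TAP tag, and NSb no longer carries the transgene. The seed-derived control line C (3 pools, F6, without salt) shared the fit and is given beside them. Each array held RNA of 10 whole seedlings, 15 days old, grown in Yoshida medium. Ta and NSb are 1 line each and come from different events, so effects of ICE1, of the tag and of the events cannot be told apart, and p-values measure the spread between pools within a line. The other arrays of the series hold the same lines in F4 and F8, in F6 under salinity stress, and in F8 after salinity stress of their F6 ancestors.

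ICE1 is a MYC-type basic helix-loop-helix transcription factor. In Arabidopsis it activates the CBF genes, called DREB1 in rice, in the cold, and the DREB1 proteins in turn switch on genes of cold, drought and salt protection. A negative segregant has passed through tissue culture and transformation as its transgenic parent did, but inherited no transgene, and it serves to separate effects of the inserted gene from those of the procedure.

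Few transcripts passed the adjusted test between the lines. At an adjusted p under 0.05 (limma, Benjamini-Hochberg over all probe sets) and a fold of at least 3, 9 transcripts were called, 3 higher and 6 lower in Ta, which is 0.0164% of those tested. Without the minimum fold 22 passed the test, 10 higher and 12 lower, or 0.0401%. The 12 lower include a probe set and its identical copy, and both are counted here and below. Over the array 4714 probe sets were identical to an earlier one. All 3 Ta values lay on one side of all 3 NSb values for each of the 22, as they did for 18.2% of all probe sets. The median difference between the lines over all probe sets, without sign, was 0.11 on the log2 scale. The median SD between pools was 0.12 in Ta and 0.14 in NSb. That SD is of single pools, and means of 3 pools vary less, so the difference cannot be weighed directly against it. An unadjusted p under 0.05 was found for 5360 probe sets, with 5.47% of all higher and 4.29% lower in Ta. Small differences that the adjusted test does not single out may thus exist. At a fold of at least 3 and any p there were 16 transcripts, 9 higher and 7 lower in Ta, and at a fold of at least 2 there were 139.

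Array medians of F6 lay between 4.14 and 4.21 (log2), and 4.17 was the median over these arrays. A signal under that level may be largely background, and the fold of a transcript that is under it in one line may then be understated. Replicate 3 of C stood apart from its group, with a mean correlation across probe sets of 0.978 with the other C arrays, where Ta and NSb arrays had 0.987 to 0.99 with their own groups. It enters the Ta to NSb comparison only through the estimate of spread. Without it 6 transcripts were called higher and 7 lower in Ta, and with no minimum fold 65 were higher and 76 lower, among them all 22.

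**Figure D1:**
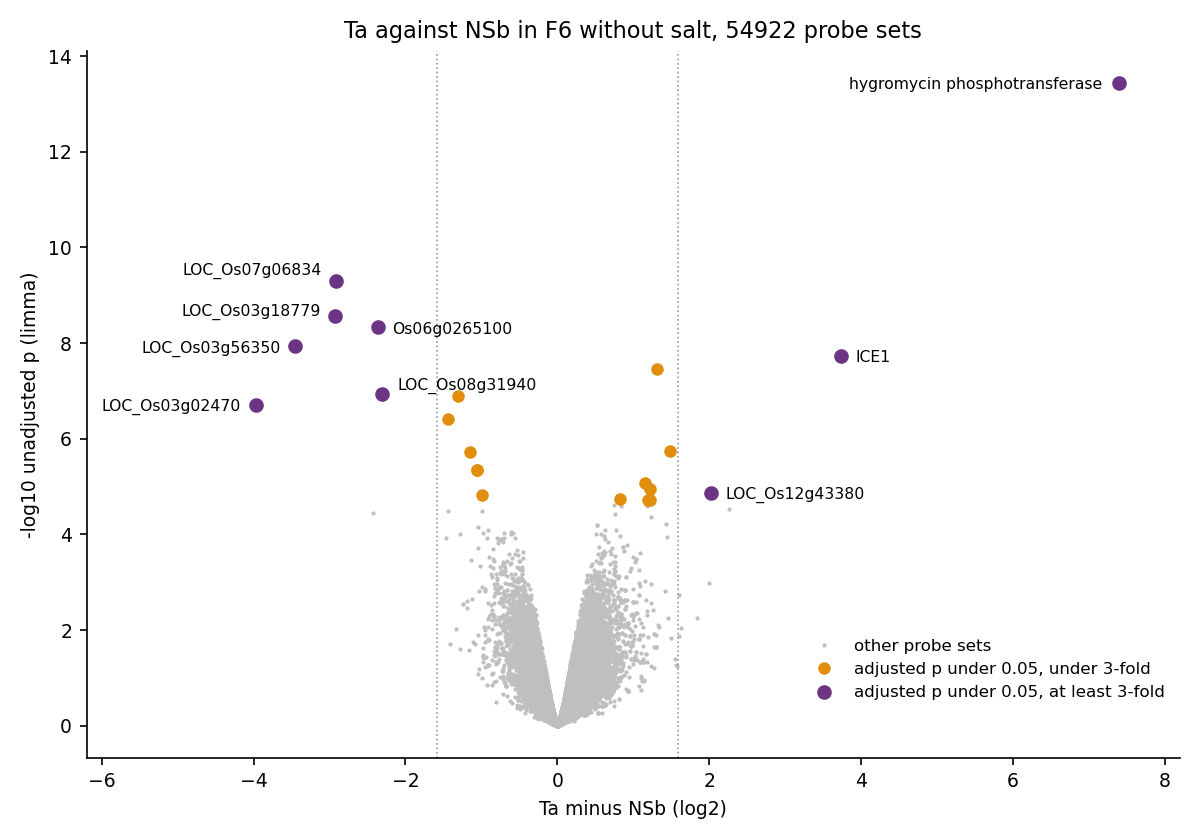
Each point is 1 of the 54922 probe sets, with the Ta minus NSb difference (log2) on the x axis and the unadjusted p (minus log10) on the y axis; the orange and purple points are the 22 transcripts past the test, under 3-fold and at least 3-fold, and dotted lines mark the 3-fold limits. Most probe sets lie near a difference of 0, and the hygromycin marker and ICE1 lie far to the right.

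The transcripts of the introduced DNA were the largest rises. Hygromycin phosphotransferase, the bacterial enzyme that inactivates hygromycin and served as selectable marker, had log2 signals of 10.75, 10.91 and 10.80 in Ta pools, against 3.57, 3.32 and 3.35 in NSb pools, with 3.40, 3.50 and 3.30 in C pools. NSb and C overlapped and both lay under the array median, while every Ta pool lay far above. The difference of Ta from NSb was 7.40 (SE 0.10, adjusted p = 1.99e-09), a 169-fold rise. ICE1 itself, LOC_Os11g32100 (chr11:18455855-18459068, plus strand, osa1r6 build), had signals of 9.10, 8.82 and 9.27 in Ta pools, against 5.56, 5.32 and 5.11 in NSb pools, with 5.53, 4.74 and 5.40 in C pools. The Ta values stood apart from the overlapping NSb and C values, by 3.74 over NSb (SE 0.21, adjusted p = 0.000167, 13.3-fold). Its probe set is annotated to the resident gene, and the transgene is a copy of OsICE1. Probe sequences were not at hand, so the shares of resident gene and transgene in this signal were not tested. Both transcripts were thus high in each pool labelled transgenic and low in each pool labelled negative segregant.

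The other transcript called higher was LOC_Os12g43380 (chr12:26879373-26880250, minus strand), annotated as a putative thaumatin, a family that includes secreted pathogenesis-related proteins. Its signals were 3.33, 4.29 and 3.86 in Ta pools, against 2.05, 1.79 and 1.57 in NSb pools, with 1.84, 1.74 and 2.31 in C pools. Ta did not overlap with either line, but 2 of its 3 values were themselves under the array median. The difference from NSb was 2.03 (SE 0.25, adjusted p = 0.0409, 4.07-fold). This call was the least secure of the 9: its adjusted p ran between 0.000167 and 0.234 over the alternatives. It was lost without C replicate 1 (adjusted p = 0.0853) or 2 (0.0638), without Ta replicate 2 (0.122) or 3 (0.197), and without NSb replicate 1 (0.128), 2 (0.192) or 3 (0.234).

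Of the 6 transcripts called lower in Ta, 5 were high in NSb and low in both Ta and C. All 5 are annotated without a known function. LOC_Os03g02470 (chr3:886169-888516, minus strand) had signals of 4.14, 3.43 and 3.72 in Ta pools, against 7.90, 7.71 and 7.60 in NSb pools, with 3.24, 3.57 and 2.32 in C pools. LOC_Os03g56350 (chr3:32111328-32111876, plus strand) had 2.53, 1.96 and 1.94 in Ta pools, against 5.91, 5.46 and 5.41 in NSb pools, with 2.19, 2.36 and 2.07 in C pools. In both, Ta and C overlapped under the array median and NSb stood well above it. Their differences of Ta from NSb were -3.97 (SE 0.29, adjusted p = 0.00106, 15.7-fold) for LOC_Os03g02470 and -3.45 (SE 0.19, adjusted p = 0.000129, 10.9-fold) for LOC_Os03g56350.

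LOC_Os03g18779 (chr3:10517826-10519113, plus strand) had signals of 3.56, 3.42 and 3.73 in Ta pools, against 6.66, 6.56 and 6.25 in NSb pools, with 3.64, 3.38 and 3.60 in C pools. LOC_Os07g06834 (chr7:3338385-3339632, plus strand) had 4.47, 4.41 and 4.21 in Ta pools, against 7.21, 7.14 and 7.47 in NSb pools, with 4.07, 4.04 and 4.14 in C pools. Os06g0265100 had 3.45, 3.18 and 3.29 in Ta pools, against 5.70, 5.83 and 5.50 in NSb pools, with 2.92, 3.10 and 2.90 in C pools. Again no NSb value overlapped with Ta or C. Ta fell below NSb by 2.92 for LOC_Os03g18779 (SE 0.14, adjusted p = 5.02e-05), by 2.91 for LOC_Os07g06834 (SE 0.11, adjusted p = 1.37e-05) and by 2.37 for Os06g0265100 (SE 0.12, adjusted p = 6.46e-05). In the same fit, which uses the same NSb arrays, these 5 transcripts stood above C in NSb, with log2 differences of 2.70 to 4.69.

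The sixth, LOC_Os08g31940 (chr8:19801419-19806091, plus strand), has no described function either, and here Ta was the line that differed. Its signals were 4.49, 4.44 and 3.92 in Ta pools, against 6.44, 6.60 and 6.73 in NSb pools, with 6.38, 6.64 and 6.36 in C pools. NSb and C overlapped and Ta lay below both. The difference from NSb was -2.30 (SE 0.16, adjusted p = 0.000774, 4.93-fold), and that from C, with the same Ta arrays, was -2.17 (adjusted p = 0.00095). The study's text gives this transcript the opposite direction in Ta. Both annotated neighbours in RefSeq gene order differed less: LOC4345569 by -0.22 (adjusted p = 0.526) and LOC4345571 by -0.43 (adjusted p = 0.363).

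**Figure D2:**
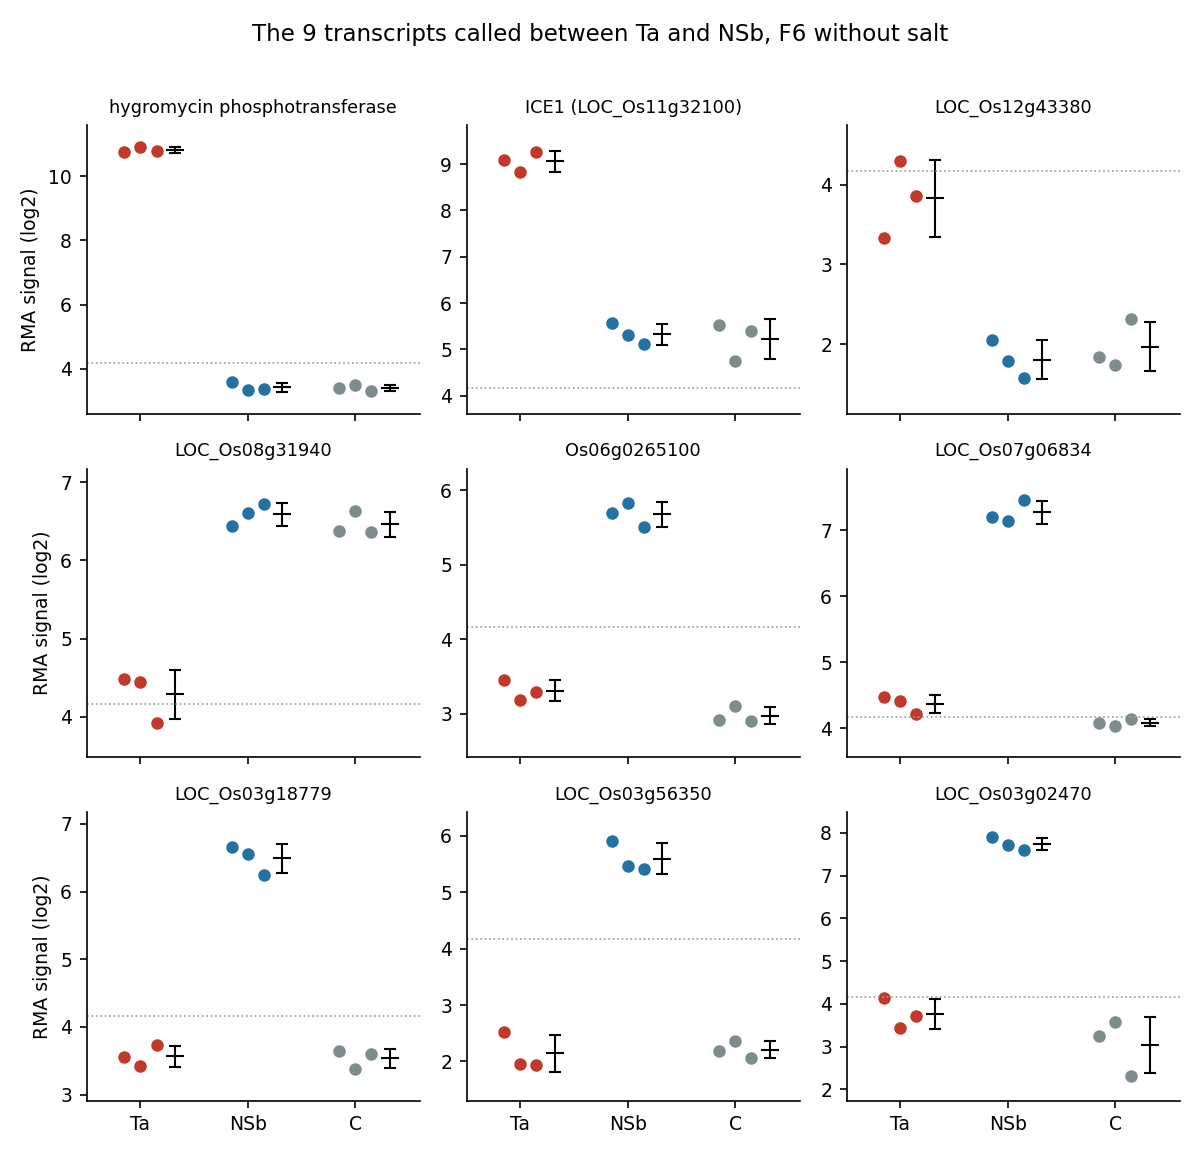
The 9 called transcripts, each in a panel with the log2 signal on the y axis: dots are pools of Ta, NSb and C, black marks are the mean ± SD (n = 3 pools), and the dotted line is the median of the F6 arrays (4.17). Hygromycin phosphotransferase, ICE1 and the thaumatin are high in Ta, 5 transcripts are high in NSb, and LOC_Os08g31940 is low in Ta.

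A further 13 transcripts passed the test at under 3-fold, 7 higher and 6 lower in Ta. The tightest was LOC4345061, a gene without a described function, with 7.98, 7.93 and 7.95 in Ta pools, against 6.64, 6.61 and 6.65 in NSb pools, and 6.44, 6.48 and 6.59 in C pools. Its difference of 1.32 (SE 0.08, adjusted p = 0.000271) was many times the spread within either line. LOC4347553, likewise undescribed, had 4.99, 4.86 and 4.98 in Ta pools, against 6.29, 6.22 and 6.23 in NSb pools, and 6.37, 6.21 and 6.45 in C pools, a fall of Ta below NSb by 1.30 (SE 0.09, adjusted p = 0.000774). In both genes NSb lay near C and Ta was the line apart.

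The undescribed Os05g0425600 was higher in Ta, at 4.32, 3.88 and 3.86, against 2.63, 2.44 and 2.54 in NSb pools and 2.28, 2.49 and 2.17 in C pools (difference 1.48, SE 0.14, adjusted p = 0.00818). LOC_Os10g17750, a hypothetical protein, had 6.67, 6.69 and 6.62 in Ta pools, against 5.64, 5.32 and 5.54 in NSb pools and 5.13, 4.67 and 4.79 in C pools, so that the pools stood in the order Ta, NSb, C without overlap. Ta minus NSb was 1.16 (SE 0.13, adjusted p = 0.0285), and NSb minus C, at 0.64, did not pass (adjusted p = 0.391). LOC_Os01g64949 followed the NSb pattern, with 3.16, 3.40 and 3.27 in Ta pools, against 4.73, 4.75 and 4.67 in NSb pools and 3.0, 3.25 and 2.86 in C pools (difference -1.44, SE 0.12, adjusted p = 0.00195). The undescribed LOC4340670 was lower in Ta by 0.99 (SE 0.12, adjusted p = 0.0443), and LOC4328398 was higher by 0.83 (SE 0.10, adjusted p = 0.0485).

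The genes with a described product among these 13 were higher in Ta. LOC4335090, CPS4, encodes syn-copalyl diphosphate synthase, which makes the precursor of the momilactone phytoalexins. It had 5.97, 6.29 and 6.01 in Ta pools, against 4.84, 4.77 and 5.01 in NSb pools, and 5.30, 5.46 and 4.96 in C pools. Ta did not overlap with NSb or with C, and the difference from NSb was 1.22 (SE 0.14, adjusted p = 0.0362). Other genes of the momilactone pathway, chosen after CPS4 had been seen, did not pass: the differences were 0.51 for the diterpene synthase KSL4 (LOC_Os04g10060, adjusted p = 0.34), 0.21 for the cytochrome P450 CYP99A2 (LOC4335096, adjusted p = 0.513), 0.14 for CYP99A3 (LOC_Os04g09920, adjusted p = 0.836) and 0.17 for the momilactone synthase MAS (LOC4335093, adjusted p = 0.766).

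LOC_Os06g29730 encodes RALFL28, of the RALF family of secreted signalling peptides. It had 6.64, 6.81 and 7.11 in Ta pools, against 5.78, 5.50 and 5.71 in NSb pools, and 6.28, 5.92 and 5.89 in C pools (difference 1.19, SE 0.15, adjusted p = 0.0485). LOC_Os07g48800 encodes a protein with a VQ domain, a short motif of proteins that bind WRKY factors. It had 4.26, 4.56 and 4.20 in Ta pools, against 3.07, 3.32 and 2.98 in NSb pools, and 3.38, 2.90 and 3.07 in C pools (difference 1.22, SE 0.15, adjusted p = 0.0485). For both genes the Ta pools lay above all NSb and C pools. The remaining 3 of the 22 were unannotated probe sets: 15915497, lower in Ta by 1.16, and 15874306 with its identical copy 15874309, where Ta fell below NSb by 1.06.

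Against C, with shared arrays, the 22 transcripts split by line: 10 passed for Ta minus C, 8 for NSb minus C, 0 for both and 4 for neither (limma, adjusted p under 0.05). The 22 were chosen for Ta differing from NSb in the same fit, so such a split was largely set by the choice. The 4 that passed for neither were CPS4, RALFL28, the thaumatin LOC_Os12g43380 and probe set 15915497. Their differences of Ta from C were 0.85 for CPS4, 0.82 for RALFL28, 1.86 for the thaumatin and -0.54 for 15915497, and those of NSb from C were -0.37, -0.37, -0.16 and 0.61 in the same order of genes.

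With 1 of the 9 arrays left out in turn, 11 of the 22 always passed: the 8 called transcripts other than the thaumatin, and LOC4345061, LOC4347553 and LOC_Os01g64949. CPS4, RALFL28, the VQ protein gene, LOC4340670, LOC_Os10g17750 and probe set 15915497 were lost without each of the 6 Ta and NSb arrays, with adjusted p up to 0.187 for CPS4, 0.244 for RALFL28, 0.26 for the VQ protein gene LOC_Os07g48800, 0.241 for LOC4340670, 0.18 for LOC_Os10g17750 and 0.0666 for 15915497. LOC4328398 was lost in 7 of the 9 (up to 0.261), 15874306 and its copy in 5 (up to 0.143) and Os05g0425600 in 2, without NSb replicate 2 (0.0613) or 3 (0.0709).

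**Figure D3:**
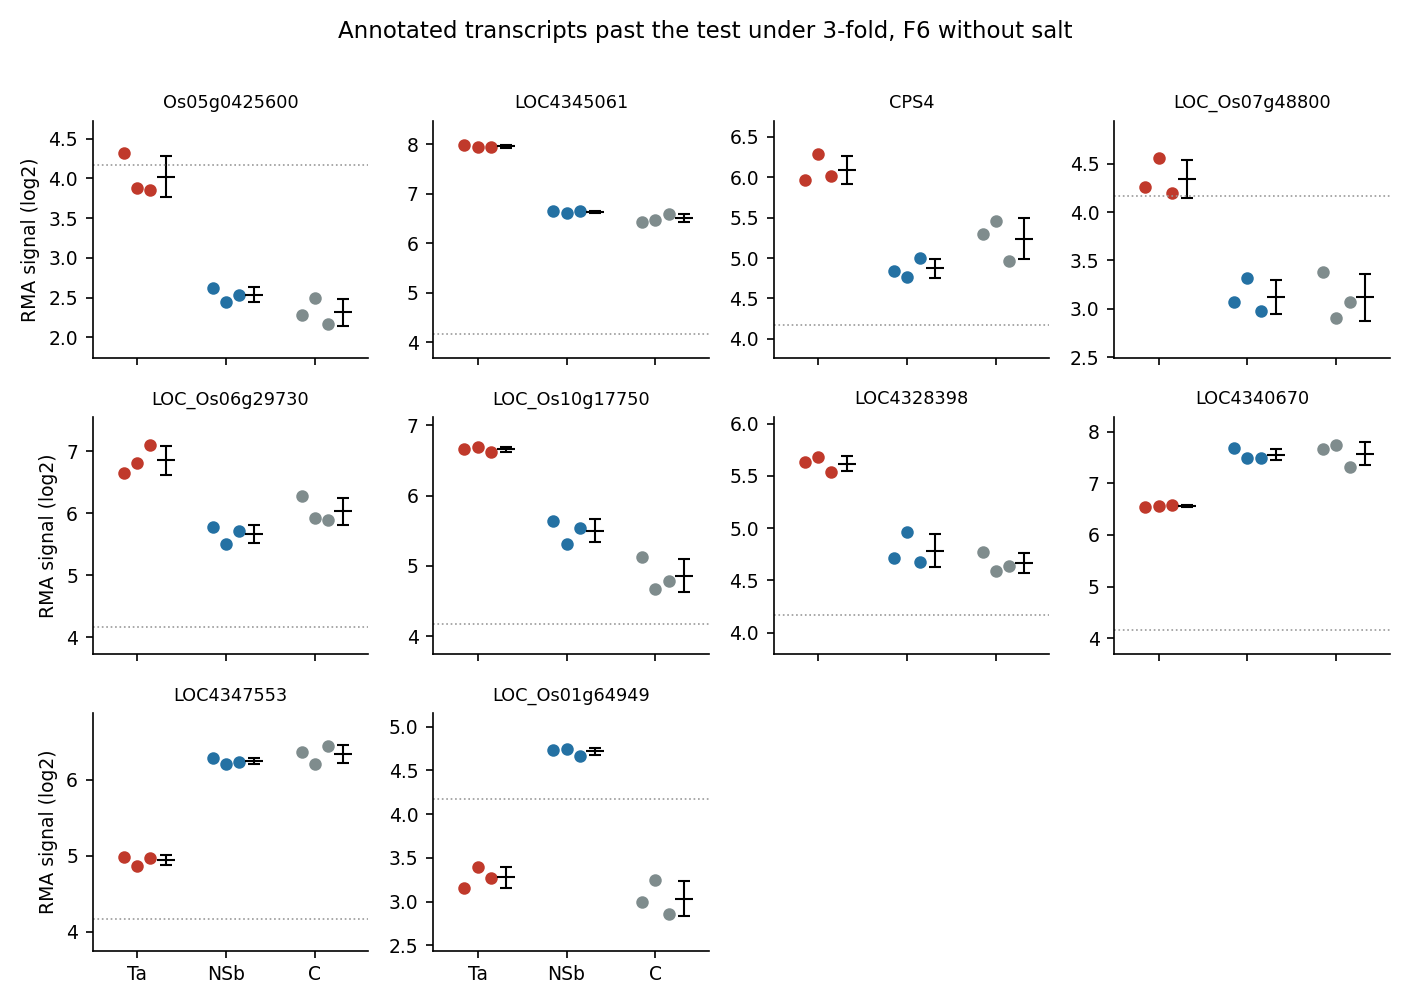
The 10 annotated ones of the 13 transcripts past the test at under 3-fold, drawn as log2 signal per pool for Ta, NSb and C, with the mean ± SD (n = 3 pools) in black and the median of the F6 arrays (4.17) as a dotted line. In each panel the 3 Ta pools do not overlap with the 3 NSb pools.

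Several large differences missed the test while the pools of C, which share the estimate of spread, lay far apart. LOC_Os08g14940 (chr8:9000838-9004095, plus strand), annotated as a putative receptor kinase and as a pseudogene in RefSeq, had 5.32, 5.53 and 5.12 in Ta pools, against 7.82, 7.71 and 7.73 in NSb pools, with 7.95, 7.93 and 6.50 in C pools. Ta lay below all other pools, and C replicate 3 lay below the other C pools. The difference from NSb was -2.43 (SE 0.33, adjusted p = 0.0688), and without C replicate 3 its adjusted p was 0.000103. It stands 3 genes from LOC4345061, which rose, in RefSeq gene order. On its other side LOC4345065 differed by 0.17 (adjusted p = 0.731) and LOC4345067 by 0.13 (adjusted p = 0.839). The difference of LOC_Os08g14940 was 0.43 in F4 and -0.46 in F8, and that of LOC4345061 was 1.14 and 1.39. A link between these 2 genes was not tested. LOC_Os01g28450, an SCP-like extracellular protein of the family that includes PR1, had 5.25, 6.04 and 5.63 in Ta pools, against 3.71, 3.46 and 2.95 in NSb pools, with 4.83, 3.77 and 4.08 in C pools. Here C lay between the lines, and the difference of 2.27 (SE 0.30) had an adjusted p of 0.062, or 0.0365 without C replicate 3. LOC_Os06g38750, a proline-rich protein, had 7.32, 7.25 and 7.45 in Ta pools, against 5.39, 5.18 and 5.48 in NSb pools, with 5.72, 5.17 and 7.29 in C pools. Its 1 high C pool is replicate 3, and its difference of 1.99 (SE 0.43) had an adjusted p of 0.245, or 0.00182 without that pool.

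The other differences among the 10 highest and 10 lowest that missed the test were smaller. The nodulin LOC_Os04g34490 differed by -1.47 (adjusted p = 0.121), LOC4341871 by -1.44 (adjusted p = 0.0645) and LOC4324520 by 1.61 (adjusted p = 0.379). The unannotated probe sets 16029368 and 15819296 differed by 1.84 (adjusted p = 0.325) and 1.63 (adjusted p = 0.354).

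Transcripts that the study names in connection with in vitro culture overlapped between Ta and NSb. LOC_Os11g31630 had 8.05, 8.16 and 8.39 in Ta pools, against 8.15, 8.02 and 8.26 in NSb pools, with 4.26, 4.78 and 4.22 in C pools. The difference between Ta and NSb was 0.06 (SE 0.16, adjusted p = 0.944). For LOC_Os01g35330 the difference was 0.03 (SE 0.14, adjusted p = 0.965), and for Os12g0428300 it was -0.08 (SE 0.14, adjusted p = 0.904). All 3 overlapped between Ta and NSb and lay above C in both lines, by 2.19 to 3.78 on the log2 scale.

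Most of the 22 kept their direction in other pools of the same lines. In F4, 18 had the same direction and 12 passed the test in it (limma, adjusted p under 0.05), where 0.071% of all probe sets passed. In F6 under salt 21 had the same direction and 16 passed, against 0.135% of all. That fit also held the F6 arrays without salt, so its estimate of spread shares the arrays that chose the 22. In F8 20 had the same direction and 13 passed, against 0.319%, and in F8 from salt-stressed ancestors 20 and 14, against 0.457%. In all 4 of these further sets 12 passed, while 6 passed in none of them and 4 in 1 to 3.

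Those 12 included 8 of the 9 called transcripts, all but the thaumatin. ICE1 differed by 3.28 in F4, 3.74 in F6, 4.0 in F6 under salt, 3.65 in F8 and 3.49 in F8 from salt-stressed ancestors, and hygromycin phosphotransferase by 7.45, 7.40, 7.35, 7.72 and 7.85 in that order. LOC_Os03g02470 differed by -2.90, -3.97, -3.20, -2.39 and -3.07, and LOC_Os08g31940 by -2.60, -2.30, -2.19, -2.62 and -2.57. For each of these 4 transcripts the sign was the same in all 5 sets. The other 4 of the 12 were LOC4345061, LOC4347553, LOC_Os01g64949 and Os05g0425600, all under 3-fold in F6.

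The 6 that passed in none of the other sets were the thaumatin, CPS4, LOC4340670, the VQ protein gene, RALFL28 and probe set 15915497. The thaumatin LOC_Os12g43380 differed by -0.41 in F4, 2.03 in F6, 0.38 in F6 under salt, 0.14 in F8 and 0.43 in F8 from salt-stressed ancestors. Under salt it was high in both lines, at 6.87, 7.21 and 6.08 in Ta pools, against 6.64, 6.55 and 5.84 in NSb pools. CPS4 differed by -0.81, 1.22, 0.15, 0.42 and 0.62 in the same order of sets, and RALFL28 by -0.08, 1.19, 0.58, 0.57 and 0.54. The VQ protein gene LOC_Os07g48800 differed by 0.00, 1.22, 1.17, -0.07 and -0.14, with an adjusted p of 0.486 under salt.

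**Figure D4:**
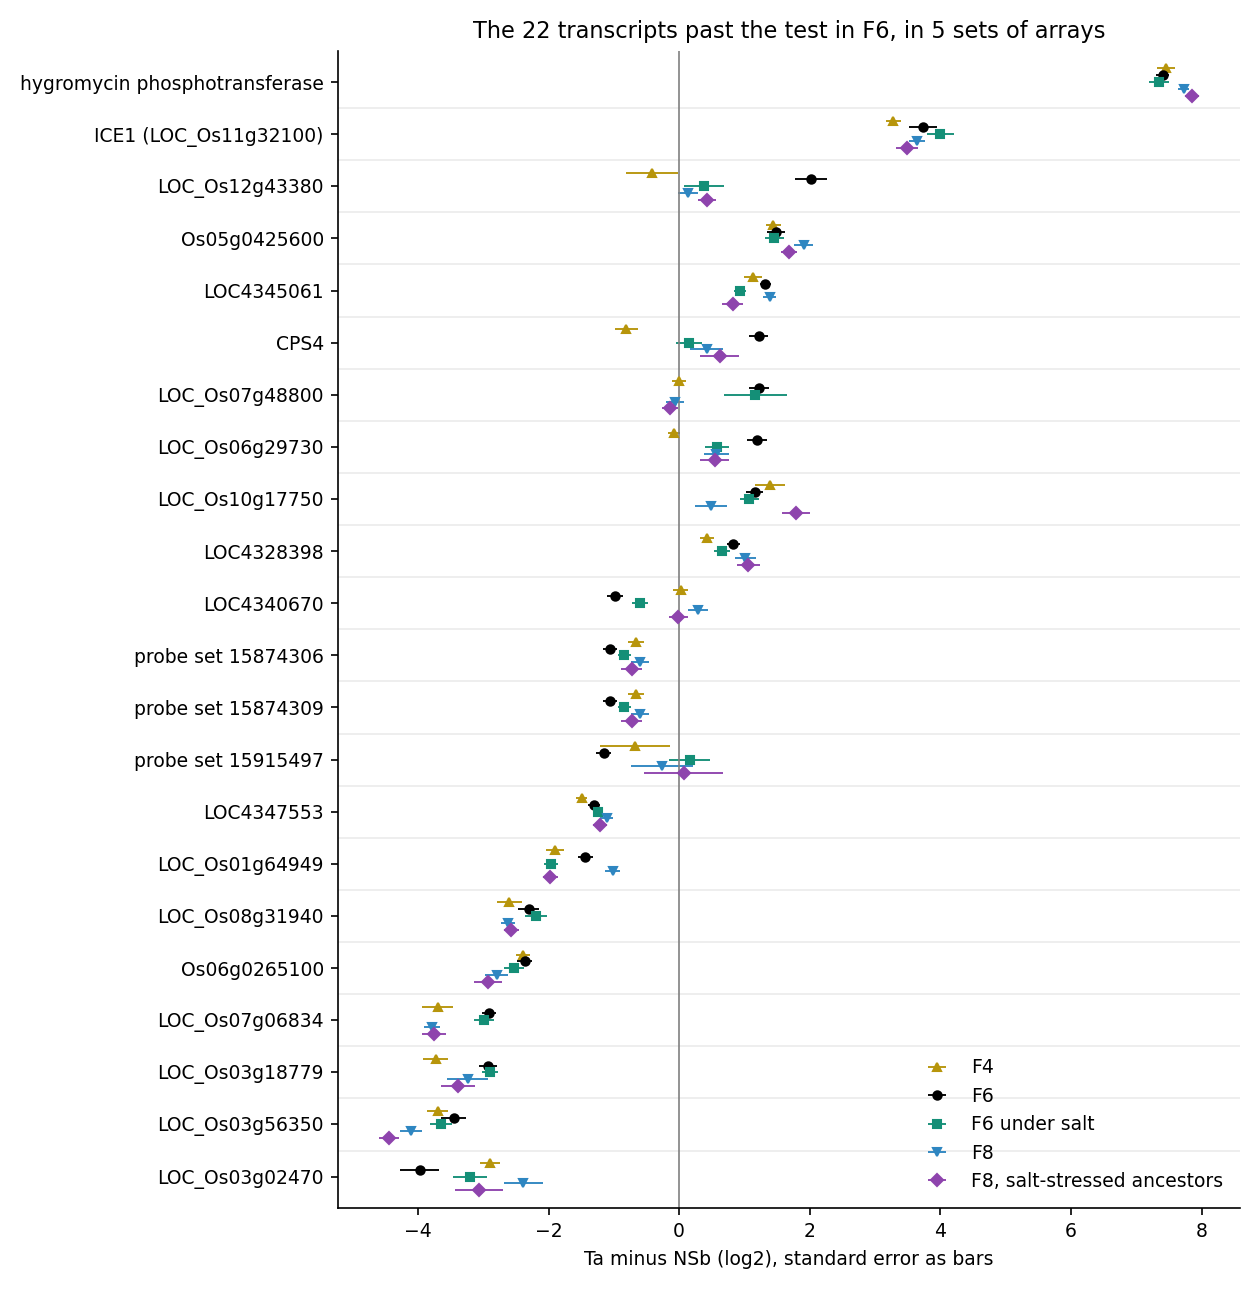
The 22 transcripts past the test in F6, with their Ta minus NSb difference (log2, x axis) in 5 sets of arrays: F4, F6, F6 under salt, F8, and F8 from salt-stressed ancestors, with standard errors as bars. The marker, ICE1 and the called transcripts high in NSb stay on their side of 0 in every set. The thaumatin, CPS4, RALFL28 and LOC4340670 cross it in F4, and LOC4340670 also in F8. The VQ protein gene crosses it in both sets of F8. Probe set 15915497 crosses it in F6 under salt and in F8 from salt-stressed ancestors.

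The change of the Ta to NSb difference was tested directly, as an interaction of line and generation in 27 arrays (F4, F6 and F8, leaving out salt and salt history). Between F4 and F6, 45 transcripts (0.0819%) passed; the difference was higher in F6 for 29 of them and lower for 16. Between F6 and F8, 125 (0.228%) passed, and the difference was higher in F8 for 94 and lower for 31. Of the 22, 5 changed between F4 and F6, a test that includes the arrays on which they were found: CPS4 (F6 minus F4 2.03, adjusted p = 0.00816), the thaumatin LOC_Os12g43380 (2.44, adjusted p = 0.033), LOC4340670, the VQ protein gene and RALFL28. Between F6 and F8, LOC4340670 and the VQ protein gene changed. The interaction with salt in the 18 F6 arrays had 0 transcripts (0%) at an adjusted p under 0.05 (limma). An unadjusted p under 0.05 was found for 3647 transcripts, and the smallest adjusted p was 0.073. The 5 smallest p belonged to genes with no name beyond their ID, with changes of the difference under salt of -1.51 for LOC4336779, 0.90 for LOC4330764, -2.19 for LOC4337129, -1.29 for LOC4324175 and -0.90 for LOC4327369.

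The DREB1 genes, whose Arabidopsis counterparts ICE1 activates, lay lower in Ta than in NSb for 7 of 9 genes, and 0 passed the test. Beside each list below, the background is that 5.47% of all probe sets had an unadjusted p under 0.05 and were higher in Ta, and 4.29% were lower. Among 19 genes matched for the cold pathway, ICE1 apart, 0 were higher and 6 lower at that level, 0 passed after adjustment, and the 6 were all DREB1 genes. The median over the 9 DREB1 genes was -0.72, within a range of -1.04 to 0.12, beside 0.01 over all probe sets. DREB1G (LOC4330306) had 3.15, 3.18 and 3.38 in Ta pools, against 4.54, 4.35 and 3.95 in NSb pools, with 3.92, 3.68 and 3.39 in C pools (difference -1.04, SE 0.18, adjusted p = 0.157). DREB1B (LOC4347618) had 2.79, 2.88 and 3.06 in Ta pools, against 3.71, 3.75 and 3.91 in NSb pools, with 3.49, 3.91 and 3.19 in C pools (difference -0.88, SE 0.17, adjusted p = 0.214). Ta lay under NSb and C without overlap in both genes, at levels mostly under the array median. The differences were -0.80 for DREB1C (LOC4339974, adjusted p = 0.267) and -0.72 for DREB1E (LOC4336721, adjusted p = 0.275). The median over the 9 was -0.06 in F4, -0.22 in F6 under salt and 0.52 in F8. In F8, DREB1B (0.79, limma, adjusted p = 0.0109) and DREB1C (0.83, adjusted p = 0.0284) passed as higher in Ta. DREB1G (0.52, adjusted p = 0.504) and DREB1E (0.42, adjusted p = 0.441) did not pass there. In F8 from salt-stressed ancestors none of these named DREB1 genes passed. The differences there were 0.34 for DREB1B (limma, adjusted p = 0.298) and 0.64 for DREB1C (adjusted p = 0.268). They were 0.60 for DREB1G (adjusted p = 0.596) and 0.24 for DREB1E (adjusted p = 0.777). Of the 9, 6 passed the interaction between F6 and F8, where 0.228% of all probe sets did. That test includes the F6 arrays in which these genes were seen low. Medians of 0.05 over 3 DREB2 genes and -0.01 over 7 genes of LEA proteins and dehydrins, which protect cells against water loss, stood near that of all probe sets, with 0 members past an unadjusted p under 0.05 in either list.

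Transcripts that respond to salt in C were described by their Ta to NSb difference without salt, a list added after the data had been seen. Of 200 probe sets raised by salt in C, 36 were higher and 12 lower in Ta at an unadjusted p under 0.05, with a median difference of 0.09. Of 32 lowered by salt in C, 0 were higher and 11 lower, with a median of -0.27. The median Ta to NSb difference of the raised list was -0.06 in F4, -0.18 in F6 under salt and 0.21 in F8. That of the lowered list was 0.09, -0.07 and -0.20 in the same order. The raised list held 4 of the 22 transcripts, with salt effects in C of 4.51 for the thaumatin LOC_Os12g43380, 1.74 for CPS4, 2.72 for RALFL28 and 1.96 for the VQ protein gene. The 4 are among the 6 that passed in no other set of arrays.

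The lists of defence genes matched by symbol, which hold neither the thaumatin nor CPS4, had 0 members past the adjusted test. Of 12 pathogenesis-related proteins and chitinases 2 were higher and 0 lower at an unadjusted p under 0.05, with a median of 0.07. PBZ1 (LOC_Os12g36880), a PR10-type protein, had 5.42, 5.38 and 5.35 in Ta pools, against 4.85, 4.19 and 4.62 in NSb pools, with 5.17, 4.50 and 4.28 in C pools (difference 0.83, adjusted p = 0.317). The chitinase gene Cht11 (LOC4331519) differed by 0.52 (adjusted p = 0.23). Of 6 WRKY factors 1 was higher, WRKY76 (LOC4347069), a repressor of defence genes, with a difference of 0.63 (adjusted p = 0.245). Of 13 JAZ repressors of jasmonate signalling 0 were higher and 2 lower (median 0.01), among them JAZ10 (LOC_Os03g08330), at -0.55 (adjusted p = 0.315).

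Of 24 genes of RNA silencing and DNA methylation 4 were higher and 0 lower at an unadjusted p under 0.05, with a median of 0.15. RDR4 (LOC4327336), an RNA-dependent RNA polymerase, had 4.41, 4.24 and 4.19 in Ta pools, against 3.74, 3.98 and 3.67 in NSb pools, with 3.91, 3.74 and 4.04 in C pools (difference 0.48, adjusted p = 0.292). The Argonaute genes AGO1D (LOC4342138), AGO1C (LOC4331253) and AGO4A (LOC4324438), whose proteins bind small RNAs, differed by 0.41 (adjusted p = 0.292), 0.38 (adjusted p = 0.33) and 0.31 (adjusted p = 0.315). The medians in the other sets were 0.05 in F4, 0.07 in F6 under salt and 0.04 in F8. No member of this list passed after adjustment.

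Genes of abscisic acid synthesis, breakdown and signalling held 3 higher and 0 lower of 19 (median 0.00): the kinase genes SAPK9 (LOC4352660) and SAPK7 (LOC4335877), with differences of 0.46 and 0.33, and ABA8OX1 (LOC9269675), an enzyme of abscisic acid breakdown, with 0.43. Their adjusted p were 0.331 for SAPK9, 0.411 for SAPK7 and 0.396 for ABA8OX1. The family of PP2C phosphatases, only some of which act in abscisic acid signalling, held 0 higher and 3 lower of 60 probe sets (median -0.05). Heat shock proteins and factors held 5 higher and 6 lower of 49 (median -0.03), and circadian clock genes 1 higher and 0 lower of 7 (median 0.06). HSFA4D (LOC_Os05g45410), a heat shock factor, differed by 0.63 (adjusted p = 0.331), and HSFA4B (LOC4325556), another, by -0.56 (adjusted p = 0.279). Aquaporins, the water channels, held 0 higher and 5 lower of 27 (median -0.12), among them SIP2-1 (LOC4332668) at -0.42 (adjusted p = 0.284). Each of the 14 lists matched by symbol had 0 members past the adjusted test.

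The balance of organs in the seedlings was read from marker genes. Leaf markers held 0 of 6 past an unadjusted p under 0.05 in either direction, with a median of 0.03, and their mean level per pool was 7.86 to 7.93 in Ta, 7.79 to 7.97 in NSb and 7.83 to 8.05 in C. Root markers held 0 higher and 5 lower of 16, with a median of -0.16, and a mean level of 5.36 to 5.56 in Ta, 5.58 to 5.69 in NSb and 5.43 to 5.62 in C. The phosphate transporter PT11 (LOC_Os01g46860) had 3.48, 3.76 and 3.16 in Ta pools, against 4.66, 4.40 and 4.46 in NSb pools, with 3.21, 3.48 and 3.44 in C pools (difference -1.04, adjusted p = 0.108). In PT11 Ta overlapped with C under the array median, and NSb was the line apart. Its Ta minus NSb difference was -0.21 in F4 and -0.56 in F6 under salt. It was -1.61 in F8 (limma, adjusted p = 0.0107) and -1.59 in F8 from salt-stressed ancestors (adjusted p = 0.000571). Whether PT11 follows the share of root material in these seedlings was not tested. The ammonium transporter AMT1-2 (LOC4330008) differed by -0.62 (adjusted p = 0.325) and the silicon transporter Lsi2 (LOC4331328) by -0.37 (adjusted p = 0.375). Endosperm and germinating seed markers held 0 higher and 1 lower of 16 (median 0.01), with mean levels of 2.66 to 2.69 in Ta, 2.66 to 2.72 in NSb and 2.63 to 2.70 in C, under the array median. The root marker and aquaporin medians were thus both negative, and the part of root material in the aquaporin values was not tested. In whole seedlings fewer cells of a type and less RNA per cell cannot be told apart.

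**Figure D5:**
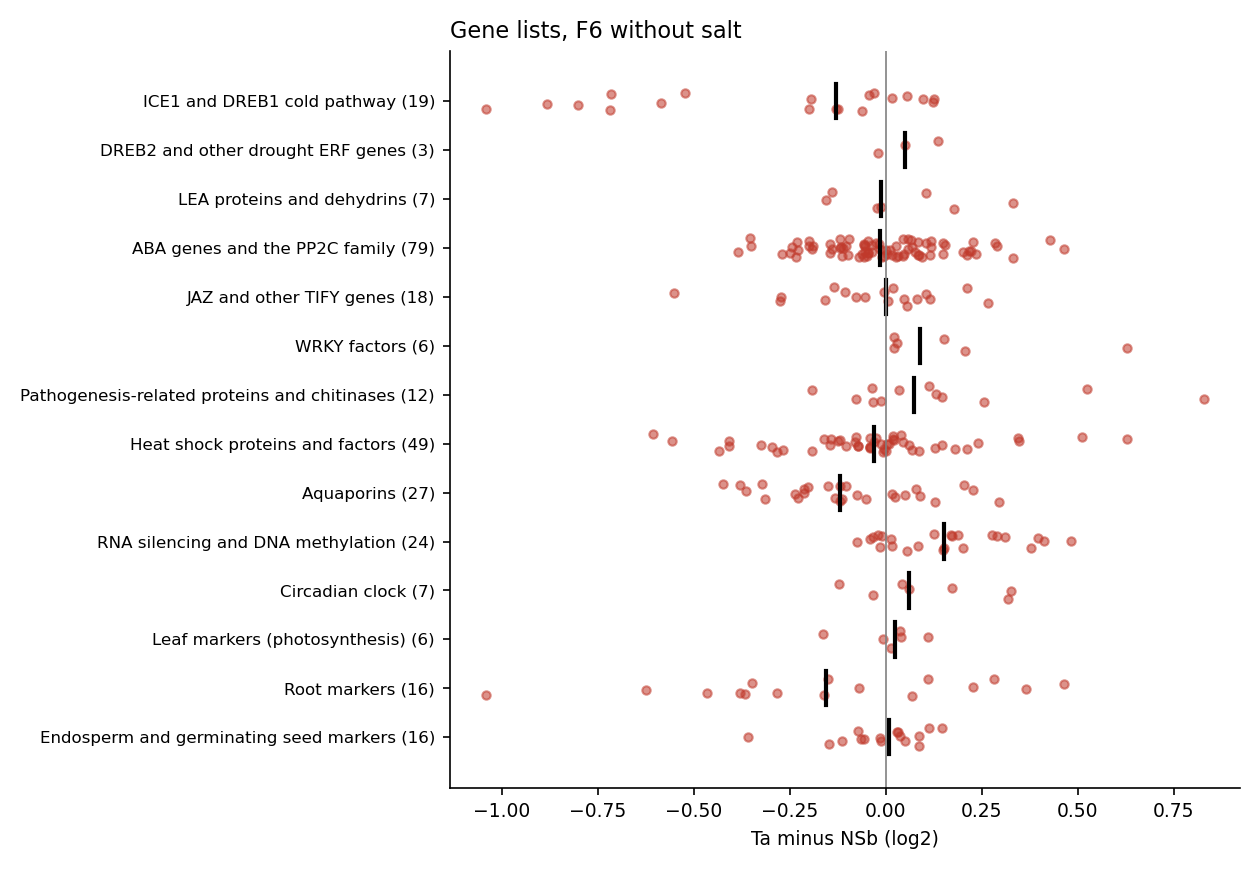
Ta minus NSb difference (log2, x axis) of each member of the gene lists in F6 without salt, 1 row per list with its number of probe sets; points are probe sets and black bars are medians. The DREB1 genes pull the cold pathway to the low side, to -1.04 at most, and most other lists centre near 0.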

How the data were processed

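Pooled rice seedlings were profiled with 45 arrays of the Affymetrix RUSGene 1.1 ST type, 3 pools in each of 15 conditions. The deposited values are RMA signals on the log2 scale, made by the authors with Expression Console, and were used as they are; program versions are not given in the sources used here. RMA draws the arrays to a common distribution, so a shift of most transcripts could not be seen. Conditions came from the sample titles. The precision is set by the number of pools.

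The fit held the 9 F6 arrays without salt (Ta, NSb and C) and no covariates, in limma 3.58.1 with R 4.3.3 (data.table package, version 1.17.8), with 2-sided moderated tests and Benjamini-Hochberg adjustment over 54922 probe sets. A call was a fold of 3 or more with an adjusted p under 0.05, after the study's thresholds. The study's filter by standard deviation was left out because the share it kept is not given in the sources used here. The same contrast was fitted in F4, in F8 and, with 18 arrays each, in F6 with salt and in F8 with salt history. Tables and figures used Python 3.11.15 with pandas 2.3.3, numpy 2.4.6 and matplotlib 3.10.9.

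Of the probe sets, 24080 had 1 gene symbol in the array annotation, 95 several and 30747 none. A supplementary table of the study gave locus names, descriptions and coordinates (osa1r6) for 348 probe sets, and none of its expression values were used. RefSeq gave names and gene order only. Lists were matched by symbol, leaving 13 tubby-like genes out of the pathogenesis-related list. After the members had been read, 5 other TIFY genes were set apart from the JAZ genes, and the PP2C family from the abscisic acid genes.

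Named were all transcripts with an adjusted p under 0.05, the 10 highest and 10 lowest differences, the genes the study names, the 5 smallest p of each interaction, and up to 4 members per list; of probe sets without annotation, only the 2 that rose most and the 2 that fell most are given by ID. Comparison, members and lists were chosen with earlier results of these data known. The methods were tested on simulated data: of 50 probe sets changed 2-fold, 68% passed the adjusted test, and of 50 changed 4-fold, 92% were called, with 1 false call, or 10 false positives at the adjusted p alone. Probe sets changed 8-fold and 16-fold were simulated in the same run, and many large changes ease the adjusted test for the 2-fold ones. The simulated noise was normal and independent, with the same SD per probe set in all lines. Recovery in the real arrays may thus be lower. Alternatives covered the fold minimum, filters, centring, the variance model, the arrays fitted, the replicate number as a block, and each array left out.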

Additional observations from a re-analysis of the deposited data

Results flagged for a closer look

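The Ta minus NSb difference changed between generations for the following transcripts, each by an interaction test of line and generation in 27 arrays (limma, adjusted p under 0.05). Values are changes of a log2 difference. Where a transcript was chosen for its F6 difference, the test includes the arrays that chose it.

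For F6 minus F4, the phytoalexin synthase gene CPS4 (LOC4335090) changed by 2.03 (adjusted p = 0.00816), the thaumatin LOC_Os12g43380 by 2.44 (0.033), the VQ protein gene LOC_Os07g48800 by 1.21 (0.0136), RALFL28 (LOC_Os06g29730) by 1.27 (0.0331) and the SCP-like LOC_Os01g28450 by 2.31 (0.0264). Changes the other way were -1.01 for LOC4340670 (0.0411) and -2.86 for the receptor kinase LOC_Os08g14940 (0.00269). The 5 smallest p also gave LOC_Os01g06876, annotated as Cf-2, a resistance protein of tomato, at 2.92 (1.27e-05), Os12g0113600 at 1.76 (2.38e-05), LOC_Os01g06882 at 2.02 (0.000169) and LOC4327707 at 0.96 (0.00123). ABA8OX1 (LOC_Os02g47470), an enzyme of abscisic acid breakdown, changed by 1.52 (0.0427).

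For F8 minus F6, 6 of the 9 DREB1 genes changed, among them DREB1G (LOC4330306) by 1.56 (adjusted p = 0.0253), DREB1B (LOC4347618) by 1.67 (0.023), DREB1C (LOC4339974) by 1.63 (0.0295) and DREB1E (LOC4336721) by 1.13 (0.0336). Over all probe sets 0.228% passed this test. The jasmonate repressors JAZ10 (LOC_Os03g08330) and JAZ2 (LOC4342421) changed by 2.66 (0.00166) and 1.09 (0.0138), the heat shock factor HSFB2A (LOC4336701) by 0.88 (0.00559), the esterase Pir7b (LOC_Os01g70850) by 1.77 (0.00212), LOC4332413 by 1.50 (0.00156), LOC4341871 by 2.72 (0.00166), LOC4340670 by 1.28 (0.00526) and LOC_Os08g14940 by 1.97 (0.0313). Changes the other way were -1.28 for LOC_Os07g48800 (0.00656), -2.03 for LOC_Os01g28450 (0.0328), -2.30 for the proline-rich LOC_Os06g38750 (0.0338), -0.99 for LOC4327707 (0.00156) and -0.73 for the clock gene CCA1 (LOC4344703, 0.0106).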

How the results depend on the processing

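The 3 transcripts called higher and 6 called lower in Ta became 10 and 12 with no fold minimum and 9 and 11 at a fold of at least 2. The higher count was 9 among the 10% of probe sets with the highest SD, 6 with only the 6 Ta and NSb arrays, 5 with the 18 arrays of F6 and 7 with all 45 arrays, while the lower count was 7 in each of these. Leaving out 1 array gave 2 to 6 higher (6 without C replicate 3, 2 without C replicate 2) and 6 to 7 lower; with no fold minimum, an alternative chosen after seeing the data, 3 to 65 higher and 8 to 76 lower. The 45 changes between F4 and F6 became 9 with a fold of at least 3 as well, 75 above the median level, 146 with 45 arrays and 17 to 63 with 1 array left out (17 without NSb replicate 3 of F6). The 125 between F6 and F8 became 22 with the fold, 47 in the SD filter, 240 with 45 arrays and 54 to 102 with 1 array left out (54 without Ta replicate 1 of F8). The 0 under salt became 3 above the median level and 33 with 45 arrays. At no fold minimum 74 passed in F6 under salt, 39 in F4 and 175 in F8. Same-numbered Ta and NSb arrays of F6 without salt showed little shared deviation (correlations of -0.07 to 0.01). Under salt replicate 3 had 0.12. The titles state no pairing, but so few arrays cannot exclude a batch shared by replicate number. A replicate block gave 2 higher and 6 lower, 19 changes between F4 and F6 and 55 between F6 and F8. Centring the arrays and an intensity trend with robust variances kept the counts at 3 and 6. The cause of these shifts was not tested, and 3 pools a line limit what small changes can be seen.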
